A study of Mus musculus with 21 samples.

Results

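The regions described here are the 10000 strongest of the 112840 open chromatin regions that were called in the sorted Myofibroblast population of the mouse colon and in none of 3 other stromal populations. They were chosen by the score that the deposited list of Myofibroblast-specific peaks gives each peak, on chromosomes 1 to 19 and X, and they are called the members below. The full Myofibroblast list held 179331 peaks on these chromosomes. No specific peak overlapped a peak of another population, and all 66491 Myofibroblast peaks outside the specific list overlapped at least 1. The score selected the members and is given only as a description. It ran from 0.463 at rank 1 through a median of 0.0801 to 0.0730456 at rank 10000, and the first peak left out scored 0.0730451. Only 53 members reached at least 2 times the lowest member score. Among all Myofibroblast peaks, rank 1 stood at the 98.8th percentile, the median member at the 80.4th and rank 10000 at the 75th, so the highest peaks of the population were shared ones, up to a score of 6.29.

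The 4 populations were Myofibroblast, MRISC (the Map3k2-regulated intestinal stromal cells that the study is about), CD34 SP and CD138, the last labelled CD34-CD138+. Each was sorted from the colon of male C57BL/6 mice of 12 weeks as cells with surface gp38 and without CD45, Epcam or CD31, with further antibodies that the sources used here do not give. Each had 2 ATAC-seq libraries, an assay in which a transposase cuts accessible DNA, but 1 pooled peak list. Library-to-library spread is therefore unknown, as is the read depth, and no test between populations was possible. Transcripts came from 1 single-cell library of gp38+CD90+ colon cells of a wild-type female C57BL/6 mouse of 12 weeks on 2% DSS, a detergent that injures the colon lining, at D3. That library differs from the sorted cells in sex, treatment and sort. The 12 bulk colon RNA samples of the series were not analysed here. Intervals in parentheses are exact 95% intervals (Clopper-Pearson for shares, Poisson for levels), which cover counting error only.

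Myofibroblasts and smooth muscle cells share a contractile apparatus of actin and myosin filaments. Its genes are switched on by serum response factor (SRF), which binds the CArG box, a run of A and T between a CC and a GG, together with coactivators of the myocardin family. MEF2 and TEAD factors act at many of the same genes, AP-1 factors bind enhancers of most stromal cells, and ZEB and SNAI factors bind a form of the E-box. Enhancers often lie far from the gene they act on, so the nearest gene is a label of position and not a known target.

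The members at the contractile filament genes are shown first, because the label of the population points to them. Of 12 filament genes, 5 (41.7%) were nearest to a member, beside 26.9% of all protein-coding genes, and the best-scored member of each follows. Lower case marks the plain sequence of the forward strand of mm10 (GRCm38), and capitals mark a CArG box, a MEF2 word, the TEAD word GGAATG, the AP-1 word TGANTCA or the E-box CAGCTG, each searched on both strands. The distances are to the nearest annotated protein-coding start, and members longer than 300 bp are shown by their central 300 bases. The Smtn member (chr11:3521392-3521657, rank 998, score 0.0965) lay in an intron 6412 bp downstream of a start of Smtn, which encodes smoothelin of contractile filaments. The Actg2 member (chr6:83521789-83522088, rank 1931, score 0.0889) lay in an intron 5552 bp downstream of a start of the gene of enteric smooth muscle gamma actin. The Myh11 member (chr16:14262040-14262305, rank 4747, score 0.0805) lay in an intron 29190 bp downstream of a start of the smooth muscle myosin heavy chain gene. The Lmod1 member (chr1:135341621-135341840, rank 4018, score 0.0819) lay in an intron 16924 bp downstream of the start of leiomodin 1, which nucleates actin filaments. The better of 2 Cald1 members (chr6:34577261-34577560, rank 4086, score 0.0817) lay between genes 21089 bp upstream of caldesmon, an actin-binding protein.
Smtn: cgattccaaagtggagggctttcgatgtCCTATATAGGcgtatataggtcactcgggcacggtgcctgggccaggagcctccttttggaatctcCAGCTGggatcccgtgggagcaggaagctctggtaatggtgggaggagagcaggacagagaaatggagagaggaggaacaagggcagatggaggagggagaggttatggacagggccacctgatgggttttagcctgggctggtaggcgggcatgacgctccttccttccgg
Actg2: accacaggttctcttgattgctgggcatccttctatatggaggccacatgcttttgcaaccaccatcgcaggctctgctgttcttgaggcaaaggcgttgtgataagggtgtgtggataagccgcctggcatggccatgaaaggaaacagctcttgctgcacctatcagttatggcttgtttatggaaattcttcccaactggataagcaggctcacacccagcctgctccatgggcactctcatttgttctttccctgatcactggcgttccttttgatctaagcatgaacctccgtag
Myh11: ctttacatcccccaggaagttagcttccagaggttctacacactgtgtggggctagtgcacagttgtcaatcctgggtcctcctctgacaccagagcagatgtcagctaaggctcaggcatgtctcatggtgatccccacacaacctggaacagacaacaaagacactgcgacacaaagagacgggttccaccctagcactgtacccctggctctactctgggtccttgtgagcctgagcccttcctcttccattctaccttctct
Lmod1: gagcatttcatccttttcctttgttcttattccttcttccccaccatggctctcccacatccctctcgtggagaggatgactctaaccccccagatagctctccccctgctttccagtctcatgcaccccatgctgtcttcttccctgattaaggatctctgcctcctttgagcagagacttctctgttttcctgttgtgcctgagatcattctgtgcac
Cald1: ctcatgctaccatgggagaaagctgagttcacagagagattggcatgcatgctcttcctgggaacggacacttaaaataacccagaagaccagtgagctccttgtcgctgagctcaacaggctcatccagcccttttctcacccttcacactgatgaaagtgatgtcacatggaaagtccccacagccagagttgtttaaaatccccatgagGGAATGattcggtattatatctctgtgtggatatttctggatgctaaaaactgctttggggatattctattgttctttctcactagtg
The Smtn member held the 1 CArG box among these 5 sequences, at position 29 from its first base, and an E-box at position 95. The Cald1 member held the TEAD word at position 213. The members at Actg2, Myh11 and Lmod1 held none of the 5 words in the bases shown, which says only that these letters are not there.

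A second set was chosen after the values were seen and is a part of 13 such members. Each holds a CArG box beside a gene whose transcripts were at least 2-fold higher in the contractile cells of the single-cell library than in all other cells. The box was about as frequent beside genes at least 2-fold lower there, in 6 of 239 members (2.51%) against 13 of 505 (2.57%). The Map1b member (chr13:99485321-99485620, rank 31, score 0.171) lay in an intron 31069 bp downstream of the start of a microtubule-associated protein. The Pdgfc member (chr3:81068596-81068895, rank 76, score 0.136) lay in an intron 32330 bp downstream of the start of a platelet-derived growth factor. The Esam member (chr9:37515229-37515528, rank 140, score 0.125) lay 12699 bp upstream of a start of a cell adhesion gene. The Tspan2 member (chr3:102738729-102739028, rank 620, score 0.102) lay in an intron 3664 bp downstream of the start of a tetraspanin. The Actc1 member (chr2:114052888-114053178, rank 2256, score 0.0870) lay with its middle 55 bp upstream of a start of cardiac alpha actin, and only the bases upstream of that start are shown.
Map1b: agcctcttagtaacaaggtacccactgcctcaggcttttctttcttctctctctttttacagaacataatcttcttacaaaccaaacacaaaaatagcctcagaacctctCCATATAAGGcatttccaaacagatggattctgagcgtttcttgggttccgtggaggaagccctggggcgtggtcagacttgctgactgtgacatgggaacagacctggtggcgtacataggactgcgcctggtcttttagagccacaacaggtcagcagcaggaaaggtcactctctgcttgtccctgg
Pdgfc: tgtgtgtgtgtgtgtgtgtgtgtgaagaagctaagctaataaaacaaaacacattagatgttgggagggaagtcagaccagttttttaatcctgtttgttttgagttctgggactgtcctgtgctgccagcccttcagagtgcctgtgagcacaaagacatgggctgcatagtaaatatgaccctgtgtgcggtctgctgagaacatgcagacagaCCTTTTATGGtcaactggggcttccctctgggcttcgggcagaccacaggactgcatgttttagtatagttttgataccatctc
Esam: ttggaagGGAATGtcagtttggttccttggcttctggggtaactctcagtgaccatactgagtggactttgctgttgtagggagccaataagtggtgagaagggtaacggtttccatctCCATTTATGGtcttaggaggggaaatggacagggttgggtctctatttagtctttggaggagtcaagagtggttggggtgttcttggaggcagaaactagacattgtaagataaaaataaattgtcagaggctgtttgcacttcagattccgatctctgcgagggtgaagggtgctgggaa
Tspan2: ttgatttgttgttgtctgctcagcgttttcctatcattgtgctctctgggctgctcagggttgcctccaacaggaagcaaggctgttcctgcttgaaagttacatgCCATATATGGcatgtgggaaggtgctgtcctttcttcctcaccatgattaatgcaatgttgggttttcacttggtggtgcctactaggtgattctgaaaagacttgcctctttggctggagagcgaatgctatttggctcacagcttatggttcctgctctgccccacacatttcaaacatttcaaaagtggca
Actc1: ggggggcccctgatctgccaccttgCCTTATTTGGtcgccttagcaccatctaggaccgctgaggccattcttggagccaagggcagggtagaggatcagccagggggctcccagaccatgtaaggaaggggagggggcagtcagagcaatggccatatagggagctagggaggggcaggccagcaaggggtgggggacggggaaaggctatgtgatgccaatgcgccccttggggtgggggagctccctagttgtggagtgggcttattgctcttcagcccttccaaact
The CArG boxes stand at position 111 of the Map1b sequence, 217 of Pdgfc, 120 of Esam, 107 of Tspan2 and 26 of Actc1. Esam also held the TEAD word at position 8. The Pdgfc sequence opens in a run of alternating T and G.

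The CArG box was most frequent in the members with the highest scores. In the central 200 bp it was found in 6 of the 100 best-scored members (6.0%, 2.23 to 12.6%), in 26 of the 900 at ranks 101 to 1000 (2.89%, 1.90 to 4.2%), in 32 of 2000 at ranks 1001 to 3000 (1.6%, 1.10 to 2.25%), in 36 of 3000 at ranks 3001 to 6000 (1.2%, 0.842 to 1.66%) and in 38 of 4000 at ranks 6001 to 10000 (0.95%, 0.673 to 1.30%). The share thus fell at each step down the ranks, and from rank 3001 on it was close to or below the 1.20% of 51170 windows of 200 bp taken every 50 kb of the genome. Among the best 1000 peaks of each population the share was 3.2% (2.20 to 4.49%) for Myofibroblast, 1.2% (0.622 to 2.09%) for MRISC, 0.8% (0.346 to 1.57%) for CD34 SP and 0.6% (0.221 to 1.30%) for CD138. The Myofibroblast interval did not overlap the other 3, but with 1 pooled list per population this is a description and no test between them. Over all 10000 the difference was small, with 1.38% of the members (1.16 to 1.63%) against 0.75%, 1.08% and 1.10%. The shared Myofibroblast peaks at or above the lowest member score held the box in 1.58% (1.45 to 1.71%), and those of them away from promoters in 2.07% (1.89 to 2.27%), so over all ranks the members did not hold it more often than the shared peaks. The shared peaks were not matched to the members in score or width. The bins of rank were set after the data were seen, and the peaks also narrowed with rank, from a median width of 461.5 bp in the first 100 to 230 bp in the last 4000. What part width has in the share was not tested.

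**Figure D1:**
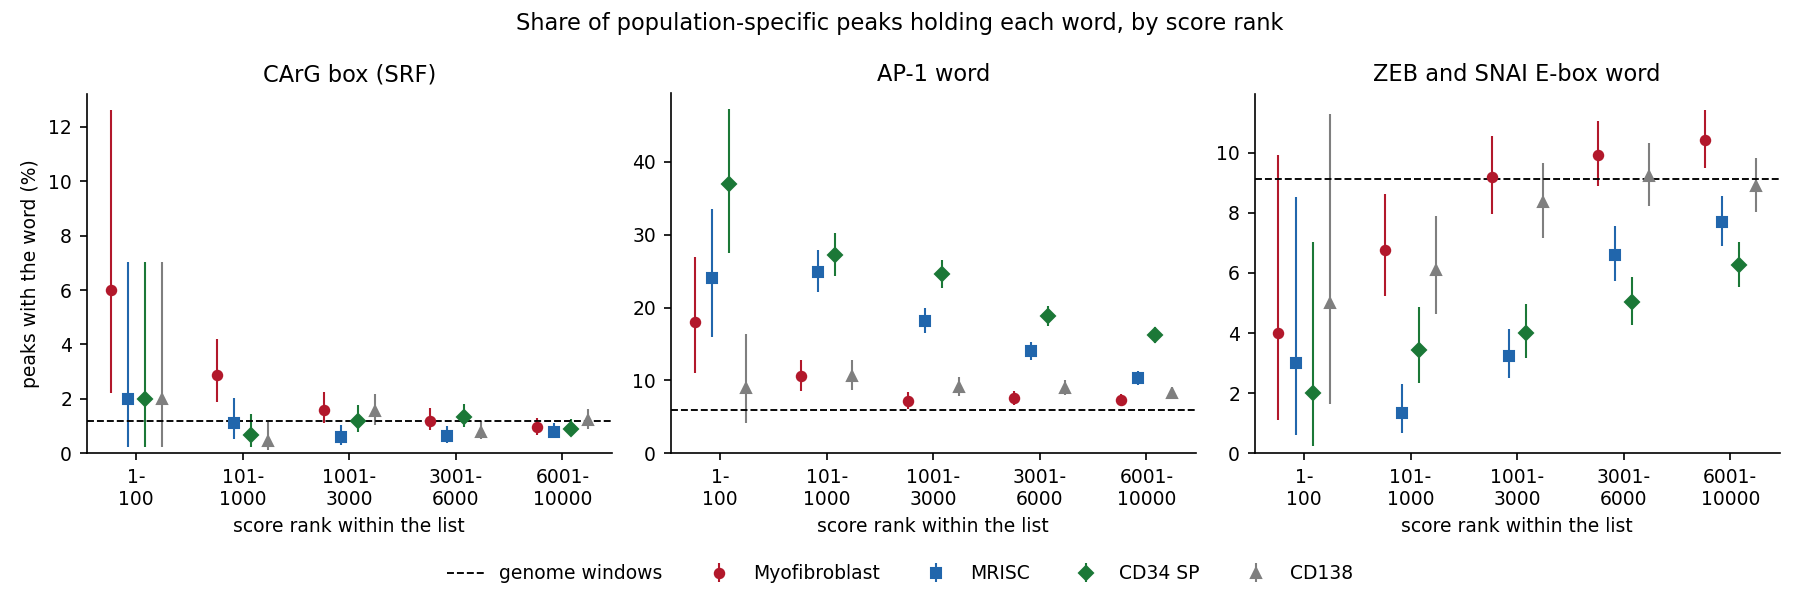
Share of specific peaks (%) with each word in the central 200 bp, by score rank within the list of each population (points, with exact 95% intervals as bars); the dashed line is the share over windows spread across the genome. The CArG share of Myofibroblast peaks starts at 6.0% and ends at 0.95%, while the AP-1 share of CD34 SP and MRISC peaks stays above that of Myofibroblast peaks at every rank.

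The AP-1 word TGANTCA followed a like course on a lower level than in MRISC and CD34 SP. It was present in 18 of the first 100 members (18.0%, 11.03 to 26.95%), in 10.6% (8.62 to 12.8%) at ranks 101 to 1000 and in 7.3% (6.51 to 8.15%) at ranks 6001 to 10000. Over all members the share was 7.77% (7.25 to 8.31%), beside 14.5% for MRISC, 19.9% for CD34 SP, 8.86% in CD138 and 5.96% of the genome windows. The shared Myofibroblast peaks away from promoters that scored at or above the lowest member held it in 21.9%. The members thus carried the AP-1 word less often than the distal regions that the Myofibroblast list shared with others. The 2 sets were not matched. Shared peaks at or above that score, promoters included, reached a score of 6.29 and had a median width of 440 bp. The members reached 0.463, with a median width of 267 bp. The part of score and width in the AP-1 shares was not tested.

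Other words stood above or below the other lists. The MEF2 word stood at 2.5% of members (2.20 to 2.83%), below the 4.59% of genome windows, and at 7 of the first 100. The other lists were below the genome too, with 1.8% for MRISC, 2.21% for CD34 SP and 2.54% for CD138. The TEAD word stood at 12.47% (11.8 to 13.1%), beside 14.2% for MRISC, 15.6% for CD34 SP, 10.4% in CD138 and 10.5% in the genome, and at 18 of the first 100. The E-box CAGCTG, bound by many basic helix-loop-helix factors, was in 10.8% of members against 13.3% for MRISC, 19% for CD34 SP and 15.5% in CD138. The ETS word ACTTCC was in 13.2% of members, near the 12.3% of MRISC and 12.9% of CD34 SP, while CD138 stood apart with 21.6%. The word of CTCF, the factor that marks domain borders, was in 1.03% of members and 1.06% of genome windows, against 2.28%, 3.77% and 2.43% in the other lists. The ZEB and SNAI E-box CAGGTA went the other way. It was in 9.64% of members (9.07 to 10.2%), beside 5.86% for MRISC, 5.14% for CD34 SP, 8.6% in CD138 and 3.93% of the shared peaks above the lowest member score, and the genome windows held it in 9.13%. Its share rose down the ranks of the members from 4 of the first 100 to 10.4% of the last 4000, and in the other 3 lists too it was higher in the last 4000 than in the first 100. Thus the last 4000 members held this word somewhat more often than the genome windows, and all members together held the CTCF word at about the share of the windows. The windows were not matched to the members in base composition.

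Base composition was close to that of the other lists. The median GC content of the central 200 bp was 47.5% in the members, 48.5% for MRISC, 47.5% for CD34 SP and in CD138, 55.0% in the shared peaks above the lowest member score and 41.5% in genome windows. Repeat-masked bases made up at least 50% of the window in 9.29% of members, against 5.8%, 7.17% and 5.22% in the other lists and 28.5% in the genome. No single 7-letter word set the members apart as the AP-1 word TGACTCA did CD34 SP, where it reached 15.9% beside a mean of 7.39% in the other 3. The highest ratio for a 7-letter word in the members was that of ATACCTG, in 2.66% beside a mean of 1.49%.

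The members lay far from promoters. Of the 10000, 289 (2.89%) had their middle within 1 kb of a protein-coding start, 4.58% lay in exons, 44.7% in introns and 47.8% between genes. The promoter share was 4.83% for the strongest 10000 peaks of MRISC, 5.68% for CD34 SP and 4.82% for CD138, and 38.0% for the 34851 shared Myofibroblast peaks at or above the lowest member score. Members lay a median of 35813 bp from the nearest start. The same median was 28437.5 bp for MRISC, 19751.5 bp for CD34 SP, 28980.5 bp for CD138 and 5142 bp for those shared peaks. More than 500 kb separated 4.58% of the members from any start, beside 2.17% for MRISC, 1.40% for CD34 SP and 3.65% in CD138. The other 102840 Myofibroblast-specific peaks lay farther out still, with a median of 41203.5 bp. The choice of specific peaks removes open promoters that all 4 populations share, so the distance from the shared peaks follows in part from the list itself.

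**Figure D2:**
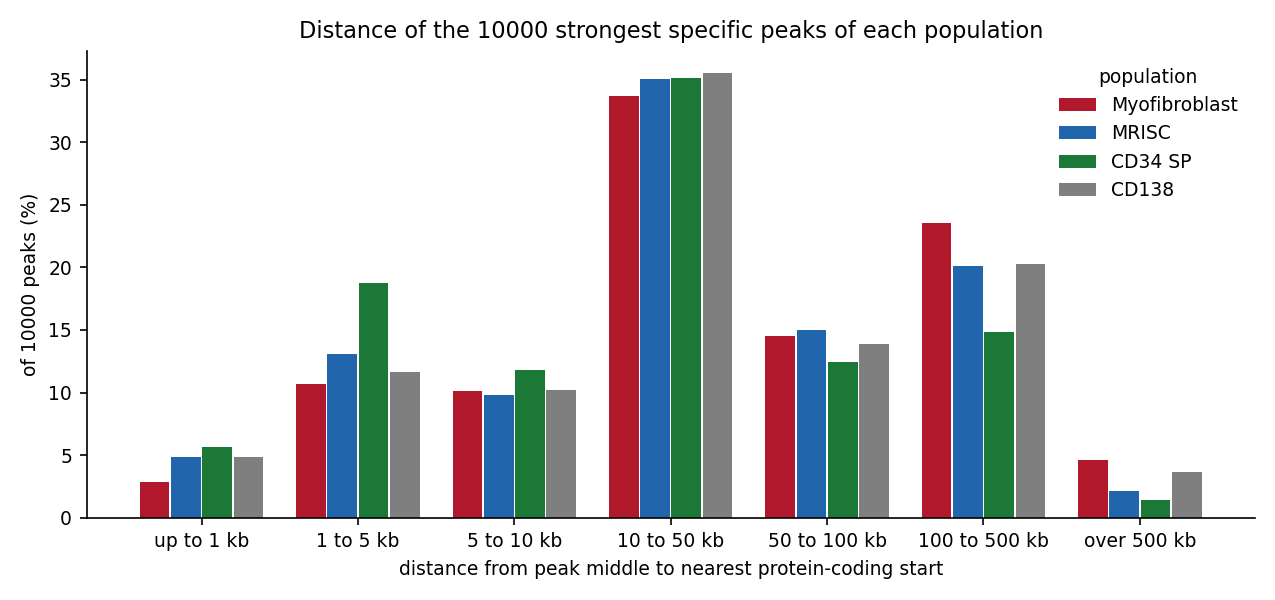
Percent of the 10000 strongest specific peaks of each population (bars) by distance from the peak middle to the nearest protein-coding start. Myofibroblast bars are the lowest up to 1 kb and the highest above 100 kb.

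Most members stood close to some other open region without touching it. The nearest peak of any other population lay a median of 1702 bp away, and 11.1% of members had one within 200 bp. The nearest MRISC peak lay a median of 4047.5 bp away, the nearest CD34 SP peak 6179.5 bp and the nearest CD138 peak 3107.5 bp. No peak of the other 3 lists lay within 10 kb of 7.74% of the members. Chromosome X held 53 members, 0.31 per Mb, while the autosomes held 3.40 to 4.79 per Mb. The strongest peaks of the other populations were also sparse on X, at 0.889 per Mb for MRISC, 1.75 for CD34 SP and 0.515 in CD138.

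The members were less clustered than the strongest peaks of the other populations. Whether they lay closer together than random placement would give was not tested. With gaps of at most about 12 kb, 8509 members (85.1%) had no neighbouring member and 243 (2.43%) fell into 77 runs of at least 3. Equal numbers of peaks gave 182 runs for MRISC, 345 for CD34 SP and 174 in CD138, and the longest run held 5 members against 16 peaks in CD34 SP. The median spacing between neighbouring members was 131033 bp, beside 98661.5 bp, 76941.5 bp and 124142.5 bp. The run of 5 lay at 4933415A04Rik and Ccnjl on chromosome 11, at 43540765 to 43570071, and both genes were nearly silent in the single-cell library, with 0.264 and 0.791 CPM in contractile cells. Another run (4 members, chromosome 13, 47845831 to 47872024) had Id4 as its nearest gene, an inhibitor of basic helix-loop-helix factors. Id4 itself begins far downstream of the run, at 48261228. It stood at 153.5 CPM (144.8 to 162.5) in contractile cells and 23.6 (22.4 to 24.8) in the others. In all, 7 members were nearest to Id4, beside 6 of the strongest peaks of MRISC, 3 of CD34 SP and 0 of CD138. The run at Stum (4 members, chromosome 1, 180428879 to 180447959) lay at a gene with 47.3 CPM (42.6 to 52.5) in contractile cells and 0.796 (0.594 to 1.04) in the others. Runs of 4 also lay at Gata5, St6galnac3, Evpl, Tnfrsf14, Piezo2 and at Hic2 with Tmem191c, all at under 6 CPM in contractile cells.

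The remaining run of 4 holds the member with the highest score, and it lies in an immunoglobulin gene. It spans 113325157 to 113330559 on chromosome 12, and all 4 members overlap Ighg1 (113325240 to 113330523), the constant region of an antibody heavy chain, although the nearest start by the protein-coding rule is that of Tmem121, 143398 bp away from the best member. The 4 scored 0.463 (rank 1), 0.138 (rank 73), 0.0800 (rank 5026) and 0.0739 (rank 9262). Ighg1 transcripts were nearly absent from the single-cell library, with 10 UMIs in all kept cells, while Igha, the constant region of the antibody class of the gut, gave 154.7 CPM (151.8 to 157.6). The part of antibody-producing cells in these members was not tested. Of the 10 immune marker genes, 1 (10.0%, beside 26.9% of all genes) was nearest to a member, and the strongest peaks numbered 1 in MRISC, 3 in CD34 SP and 12 in CD138 at these genes.

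None of the other members of the top 10 lay at a gene of the contractile lists. Rank 2 (score 0.324) lay 610060 bp upstream of Nr2f1, an orphan nuclear receptor. Rank 3 lay 9697 bp upstream of a start of Dab2ip, a Ras GTPase-activating protein, rank 4 near Mut, a mitochondrial mutase, and rank 5 20101 bp upstream of Lpcat1, a phospholipid enzyme. Rank 6 (score 0.246) lay 144267 bp upstream of Agtr1b, a receptor for the vasoconstrictor angiotensin, with a MRISC peak 63 bp away. Its transcripts stood at 16.5 CPM (13.7 to 19.6) in contractile cells and 4.47 (3.97 to 5.01) in the others. Ranks 7 to 10 lay at Fhit, at Rgmb and, with 2 members, at Serp2.

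In all, 5834 of 21670 protein-coding genes (26.9%) were nearest to at least 1 member, against 25.6% for the strongest MRISC peaks, 25.2% for CD34 SP and 26.2% for CD138. At least 3 members fell to 976 genes (4.5%). The genes with the most members are given next. Nav2, which guides neurite growth, had 13, Fam19a5, Insc, Sel1l and St6galnac3 had 12 each, and Cdh20, Celf4, Csmd1, Frmd4a and Kirrel3 had 11 each. Irx2, Lrmda, Rbfox1, Sox9 and 3110018I06Rik had 10 each, and Adgrl2, Auts2, Cacna1c, Cdh4 and Cux2 had 9. Of these 20, Csmd1, Kirrel3, Irx2, Rbfox1, Cdh4 and 3110018I06Rik gave no UMI in contractile cells, which allows up to 0.486 CPM by the exact interval, and Nav2 stood at 20.4 CPM (17.3 to 23.9) there and 10.2 (9.42 to 10.98) in the others. The stretch of sequence nearer to a gene's starts than to any other, called its territory here, had a median of 34.6 kb for genes with no member and 662.2 kb for genes with 4 or more, so territory moves with the member count.

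Contractile genes held members in numbers near those of the other populations. Over 54 genes of filaments, their control, their anchors and their regulators, 84 members fell to 33 genes (61.1%, background 26.9%), or 5.58 per Mb of territory beside 3.80 per Mb over all genes. The strongest MRISC, CD34 SP and CD138 peaks gave 74, 87 and 79 at the same genes. Members made up 5.41% of all Myofibroblast peaks at these genes and 5.58% at all genes. Of the 84, 52 lay in introns, 30 between genes and 2 in promoters, at a median distance of 36399.5 bp. None held a CArG box or MEF2 word in the central 200 bp, where the Smtn box just misses the window, while 10 held the TEAD word, 9 the AP-1 word and 12 the E-box. Over all members the shares of these 5 words were 1.38%, 2.5%, 12.47%, 7.77% and 10.8%, in the same order. At such shares 84 members would hold few CArG boxes or MEF2 words, so their absence here says little.

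**Figure D3:**
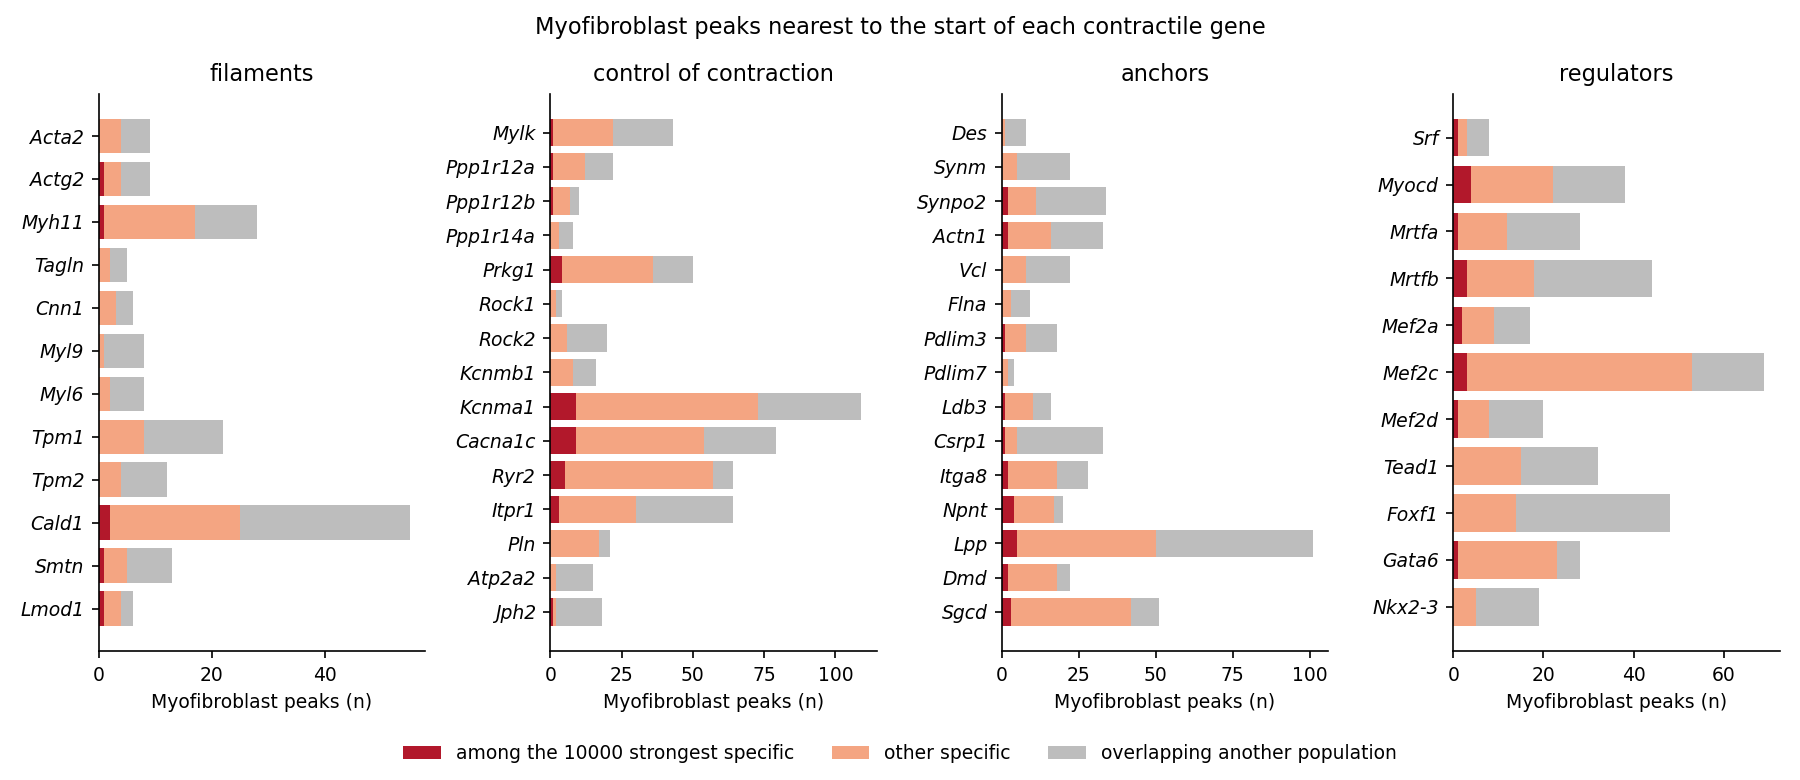
Number of Myofibroblast peaks nearest to the start of each of 53 of the 54 contractile genes, split into members, other specific peaks and peaks overlapping another population. Members are the thin first part of each bar, with 9 at most, and 21 genes have none.

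The filament genes had 6 members, or 7.83 per Mb of territory, beside 6.52 for MRISC, 20.88 for CD34 SP and 5.22 for CD138. Besides the 5 genes printed above, Acta2, Tagln, Cnn1, Myl9, Myl6, Tpm1 and Tpm2, the genes of smooth muscle actin, transgelin, calponin, myosin light chains and tropomyosins, had none. Acta2 had 9 Myofibroblast peaks, of which 4 were specific, so the locus was open but its specific peaks scored below the members. Myh11 had 28, of which 17 were specific and 1 was a member. CD34 SP had 16 of its strongest peaks at filament genes, 6 of them at Tpm1.

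The genes that control contraction held 34 members at 9 of 15 genes, against 30 for MRISC, 19 for CD34 SP and 26 in CD138. Kcnma1, the calcium-activated potassium channel that relaxes smooth muscle, had 9, from 58.22 kb upstream to 379.4 kb downstream of its starts, with 1 in a promoter. Cacna1c, the pore of the voltage-gated calcium channel that starts contraction, had 9, all in introns, of which the best (score 0.0893, rank 1871) held an AP-1 word. At Cacna1c the other populations had 4, 1 and 2 of their strongest peaks, in the order MRISC, CD34 SP and CD138, and at Kcnma1 4, 4 and 7. Ryr2, a calcium release channel, had 5, beside 6, 0 and 4. Prkg1, the kinase of nitric oxide relaxation, had 4, beside 2, 0 and 2. Itpr1, the other calcium release channel, had 3, beside 2, 2 and 3, the best at rank 547 with a score of 0.103. Mylk had 1, beside 3, 0 and 2, and Ppp1r12a 1, beside 2, 0 and 1. Ppp1r12b had 1, beside 1, 0 and 2, and Jph2 1, beside 0, 1 and 0.

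The anchors of the filaments held 28 members at 11 of 16 genes, against 18, 33 and 26. Pdlim3, an actin-associated protein of muscle, had the best-scored member of all contractile genes, at rank 56 with a score of 0.145 and 44.33 kb upstream of its start (chr8:45840934-45841330). Lpp had 5, but its strongest peaks in the others were 6, 9 and 10. Npnt, a matrix ligand of the Itga8 integrin, had 4, beside 0, 0 and 2, and Itga8 itself had 2, beside 0, 1 and 5.

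The transcriptional regulators held 16 members at 8 of 11 genes, against 21, 19 and 23. Myocd, the SRF coactivator of smooth muscle, had 4, all between genes and 16.53 to 190.63 kb upstream of its start, against 1 for MRISC, 1 for CD34 SP and 4 in CD138. Srf had 1 at 19.62 kb upstream (score 0.0767), beside 0, 2 and 0 in MRISC, CD34 SP and CD138. Mrtfb had 3, beside 2, 0 and 3, Mef2c had 3, beside 1, 0 and 7, and Mrtfa had 1, beside 6, 1 and 2.

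**Figure D4:**
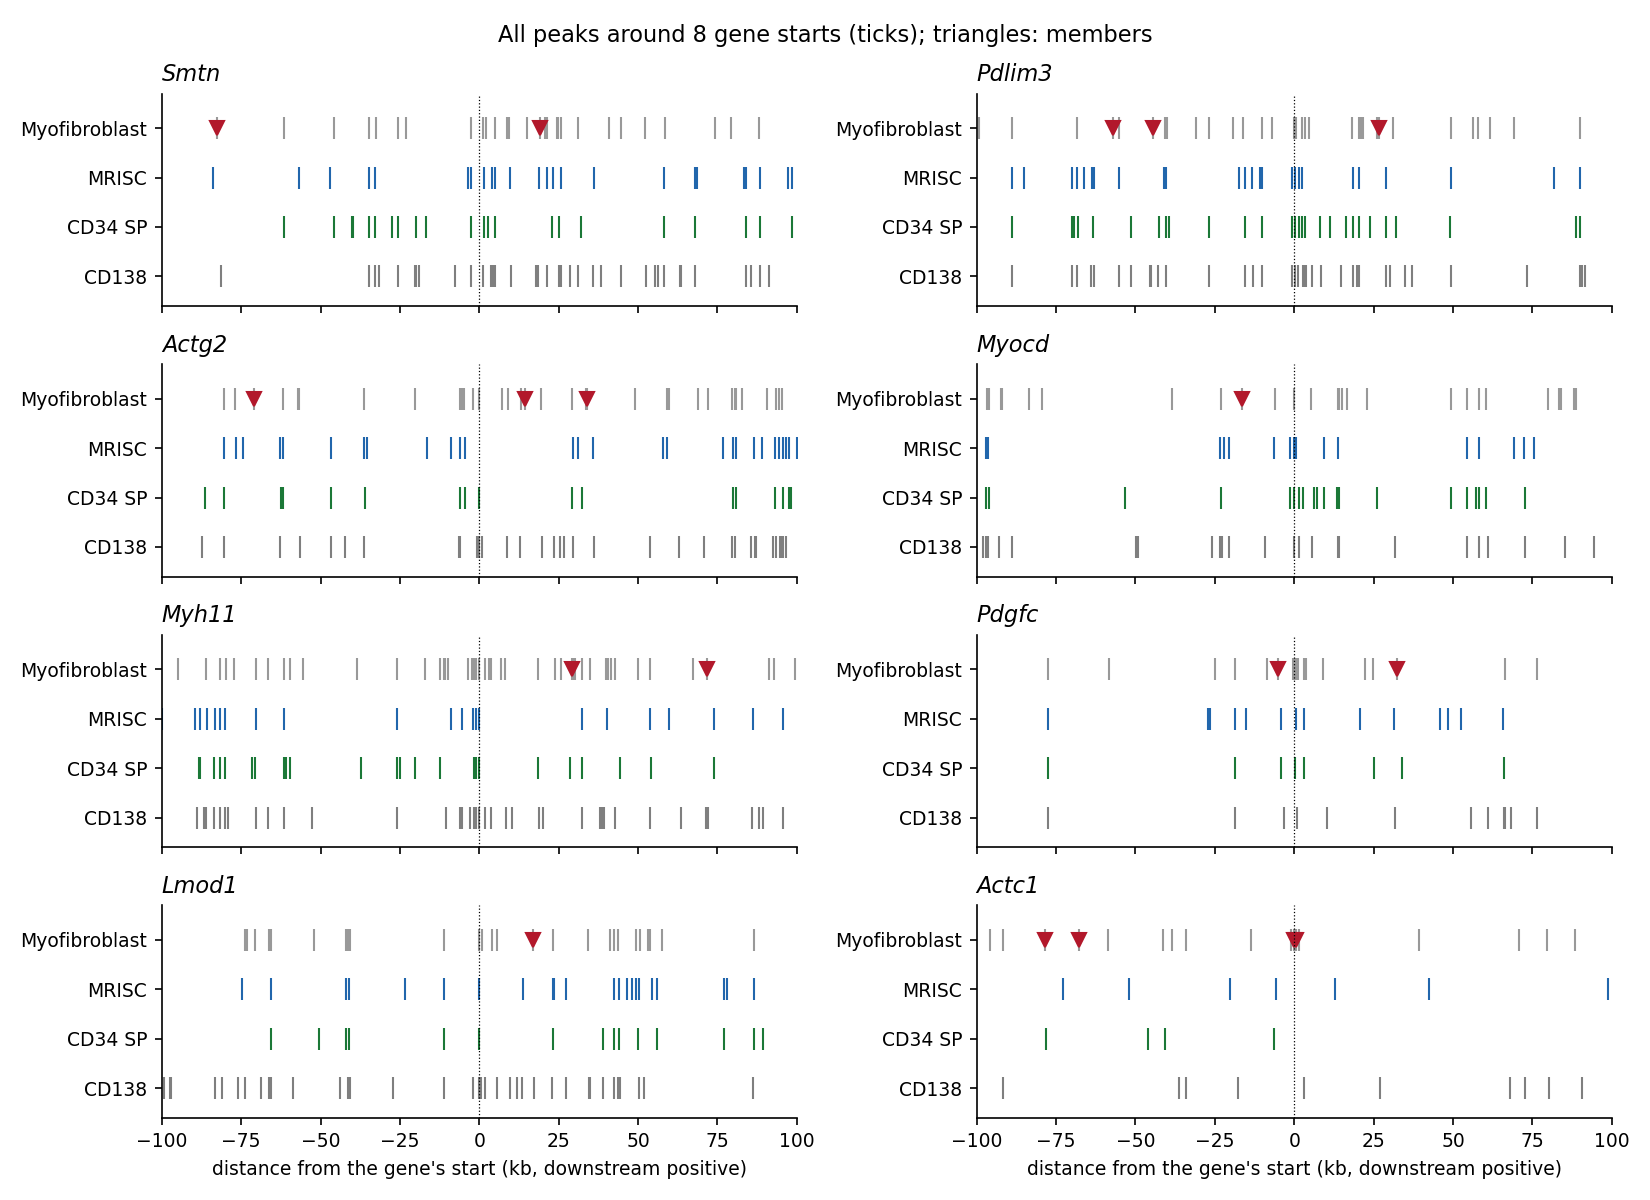
Peaks of the 4 populations (ticks) within 100 kb of the most upstream annotated start of 8 genes, with members as triangles; the axis is the distance from the start in kb, downstream positive. Around Actc1 the Myofibroblast row has 17 peaks, 2 members among them at the start, and the other rows have 4 to 10, while CD138 has more peaks than Myofibroblast at Lmod1 (36 against 27), Smtn (36 against 28) and Pdlim3 (36 against 32) and as many at Actg2 (34).

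Members also lay at marker genes of other cells. The fibroblast list, whose genes mark matrix-producing cells, had 5 members at 5 of 13 genes, against 26 for MRISC, 28 for CD34 SP and 10 in CD138. The list of crypt-top myofibroblasts had 26 at 11 of 15 genes, beside 25, 30 and 25. All 6 genes of interstitial cells of Cajal, the pacemakers of the gut, were nearest to a member, beside 26.9% of all genes, with 15 in all (Ano1 6, Gpr20 3) beside 3, 6 and 9. That was 6.09 per Mb, beside 3.80 over all genes, and 81.8% of the Myofibroblast peaks at these genes were specific, beside 62.9% at all genes. The specific share was higher at glial genes (84.1%) and lymphatic endothelial genes (83.1%), and lower at the other lists of this paragraph. Of the CD138 peaks at the genes of interstitial cells of Cajal, 70.2% were specific. Epithelial genes had 9 members at 5 of 10 genes beside 1, 2 and 7, or 18.1 per Mb, with 3 at Cdh1 and 2 each at Hnf4a and Lgals4. Endothelial genes had 10 at 6 of 8 genes, beside 15, 7 and 8 peaks in MRISC, CD34 SP and CD138. Lymphatic endothelial genes had 5 at 2 of 6 genes, beside 5, 0 and 3. Pericyte genes had 5 at 4 of 8, beside 3, 5 and 6, glial genes 6 at 3 of 8, beside 5, 0 and 3, and neuronal genes 4 at 3 of 9, beside 7, 5 and 4. The part of such cells in the sorted sample was not tested. In the contractile cells of the single-cell library, the summed level of the epithelial list was 11.1 CPM against 84.1 in the others, with 2 of 10 genes at 0, and that of the list of interstitial cells of Cajal 29.3 against 33.0, with 1 of 6 at 0.

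The transcript level of the nearest genes was read in a cluster of 1115 contractile cells (9.80% of 11376 kept, 7584902 UMIs), named contractile-like from its filament markers. All 12 filament markers were at least 2-fold above the other cells, and Myh11, Actg2, Cnn1 and Lmod1 led it. At finer resolution it split in 2, and the smaller group of 273 cells was led by Rgs5, a mural cell gene, with Id4 and Cpe among its leading genes. A gene was counted as higher or lower where its CPM, its UMIs scaled to the same total in both groups of cells, differed at least 2-fold between this cluster and the other cells, with 1 CPM added to both, and reached 20 CPM in the higher group. By this rule 454 of 6351 genes at 20 CPM or more were higher (7.15%) and 377 lower (5.94%). With 1 library there is no test.

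Most members had a quiet gene as their nearest, at a share below that of such genes in the territory. Genes under 20 CPM in both groups of cells were nearest to 6559 members (65.6%), on 70.3% of the territory. The same genes were nearest to 5950 of the 10000 strongest peaks of MRISC, 4579 of CD34 SP and 6325 of CD138. Genes that were higher in contractile cells were nearest to 505 (5.05%), on 3.11% of the territory, and lower genes to 239 (2.39%), on 2.82%. By score rank, the share at higher genes was 11 of the first 100, 6.11% at ranks 101 to 1000, 5.85% at ranks 1001 to 3000, 4.8% at ranks 3001 to 6000 and 4.45% in the last 4000. In the first 100 peaks of MRISC, CD34 SP and CD138 it was 3.0%, 5.0% and 6.0%. These shares rest on few peaks each, in bins set after the data were seen, and were not tested against each other. The share at lower genes showed no such course, at 2.0% in the first 100 and 2.1% in the last 4000.

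Read from the genes, higher genes held a member more often than lower ones. At least 1 member was nearest to 239 of the 454 higher genes (52.6%, 47.9 to 57.3%) and to 144 of the 377 lower genes (38.2%, 33.3 to 43.3%), beside 28.8% of genes at neither side and 25.2% of genes under 20 CPM. For MRISC the order was the opposite, with 40.7% of higher and 50.9% of lower genes, and for CD34 SP likewise, with 51.8% and 59.9%. CD138 gave 44.5% and 34.7%, the same order as Myofibroblast. Per Mb of territory, higher genes held 6.18 members and lower genes 3.22, against 4.77 and 6.67 in MRISC, 6.80 and 8.40 in CD34 SP and 5.60 and 3.44 in CD138. As a share of all Myofibroblast peaks at the genes, members made up 5.54% at higher and 4.03% at lower genes, 4.78% at genes of neither side and 6.08% at genes under 20 CPM, so on this scale higher genes stood above lower ones but not above quiet ones. The order of the Myofibroblast shares held where genes were split into 3 classes by territory, with 12.6% against 7.69% of genes with a short territory, 37.8% against 26.3% with a middle one and 75% against 55.7% with a long one. The intervals overlapped in the first 2 classes.

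**Figure D5:**
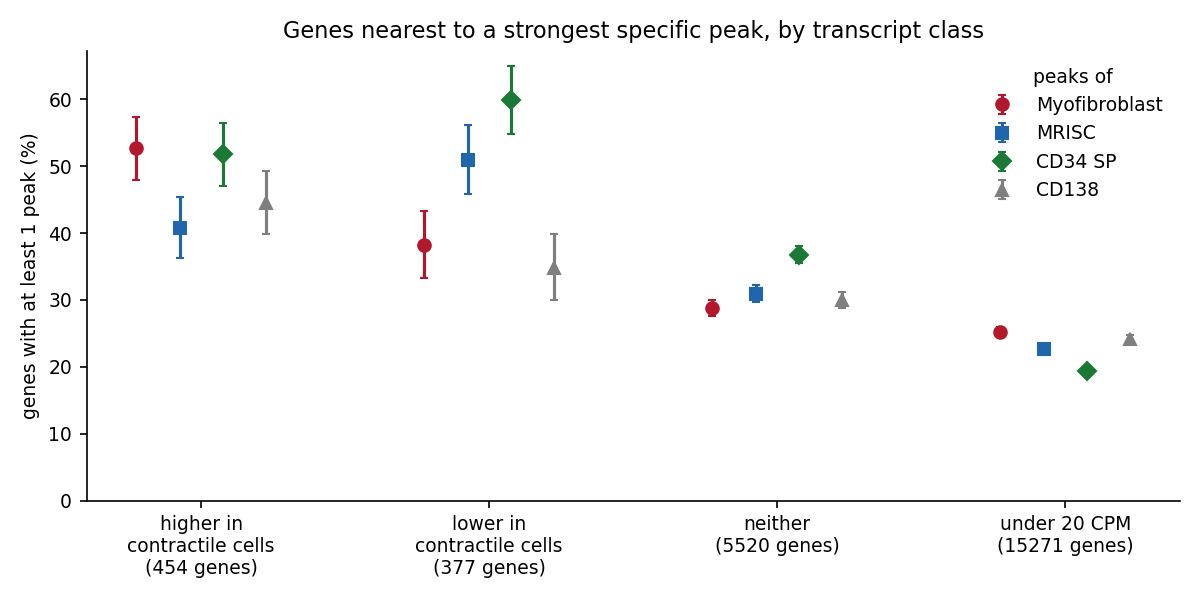
Percent of genes nearest to at least 1 of the 10000 strongest specific peaks of each population (points, exact 95% intervals), for genes higher or lower in contractile cells, at neither side, or under 20 CPM. Myofibroblast and CD138 points fall from higher to lower genes, and MRISC and CD34 SP points rise.

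The 11 members of the first 100 at higher genes lay at Bzw2, Tinagl1, Map1b, P3h2, Csdc2, Bcas3, Tspan15, Pdlim3, Hmcn1, Fat4 and Pdgfc. Tinagl1, a matrix protein, stood at 333.0 CPM (320.2 to 346.3) in contractile cells and 6.57 (5.96 to 7.22) in the others, and its member (rank 29, score 0.173) held an AP-1 word. Map1b stood at 468.2 CPM (452.9 to 483.8) against 47.2 (45.6 to 48.9). Pdlim3 stood at 772.2 CPM (752.5 to 792.2) against 86.8 (84.5 to 89.0). Csdc2, an RNA-binding protein, stood at 35.6 CPM (31.5 to 40.1) against 10.1 (9.38 to 10.9), and its member (rank 37) held the MEF2, TEAD and AP-1 words together.

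Among the 316 genes with at least 3 members and 20 CPM in contractile cells, Pdgfc had the highest ratio, with 6 members and 131.2 CPM (123.2 to 139.6) against 2.34 (1.99 to 2.74) in the others. Stum, Cpe, Rbm24, Kcnma1, Sntg2, Myocd, Sema3a and Ccdc88c were among the 10 highest as well. Cpe, a peptide-processing enzyme, had 3 members and 68.8 CPM (63.0 to 74.99) against 1.94 (1.62 to 2.31). Rbm24, a splicing factor of muscle, had 3 and 40.1 CPM (35.7 to 44.9) against 0.75 (0.555 to 0.992). Kcnma1 stood at 58.3 CPM (53.0 to 64.0) against 1.61 (1.31 to 1.95), and Myocd at 43.4 (38.8 to 48.3) against 1.56 (1.27 to 1.90).

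The CArG box was found at few members beside genes that were higher or lower. It was in 13 of the 505 members nearest to a higher gene (2.57%, 1.38 to 4.36%), in 6 of 239 nearest to a lower gene (2.51%, 0.927 to 5.38%), in 1.45% (1.03 to 1.98%) at genes of neither side and in 1.22% (0.968 to 1.52%) at genes under 20 CPM. The shares at higher and lower genes were above the other 2, but all 4 intervals overlapped. Besides the 5 printed above, the 13 lay at 2900026A02Rik, Unc5c, Gng2, Cacnb1, Pde4d, Cped1, Agap1 and 6330403K07Rik. Cacnb1, a calcium channel subunit, had its member 624 bp upstream of a start. Esam stood at 94.5 CPM (87.7 to 101.7) in contractile cells against 3.09 (2.68 to 3.55), Tspan2 at 65.4 (59.8 to 71.4) against 1.82 (1.51 to 2.18), and Actc1 at 112.2 (104.8 to 120.0) against 1.26 (0.998 to 1.56). Actc1 had 2 members, both in promoters, at ranks 2256 and 3911.

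Contractile genes with high transcripts were not the ones with the most members. All 12 filament genes were higher in contractile cells, with a summed 41160 CPM against 2965, and 5 of them held a member. The cluster was named from these 12 genes, so their higher level there follows largely from that choice. Over the 54 contractile genes, 37 were higher, those 12 among them, none was lower, and 24 of the 37 held a member. Acta2 reached 9868 CPM (9797 to 9939) against 296.4 (292.2 to 300.6) and Tagln 7365 (7304 to 7426) against 156.7 (153.7 to 159.7), each with no member. Their territories were short, at 37.2 kb and 17.5 kb. On them MRISC had 2 and 0 of its strongest peaks, CD34 SP 2 and 2, and CD138 0 and 0. Cacna1c, with 9 members on 512.5 kb, stood at 16.1 CPM (13.4 to 19.2) against 1.38 (1.11 to 1.69). Ryr2, with 5 on 1179 kb, stood at 0.527 (0.144 to 1.35). The relation of level to members apart from territory was not tested at these genes. Npnt, with 4, stood at 1.71 CPM (0.913 to 2.93) against 0.964 (0.741 to 1.23), so it did not pass the rule. Of the fibroblast markers, 10 of 13 were lower in contractile cells and 5 of the 13 held a member.

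Genes with a member had higher transcript levels than genes with none. The median level in all kept cells was 1.62 CPM for genes with no member, 5.64 with 1, 5.68 with 2 or 3 and 7.05 with 4 or more. For CD34 SP the last group reached 38.7 CPM. The share of genes higher in contractile cells rose from 1.36% through 3.17% and 5.23% to 7.38%, while the share of lower genes went from 1.48% to 2.44%, 2.64% and 2.11%. The share of higher genes rose in the other lists too, from 1.67% to 4.88% for MRISC, from 1.36% to 6.99% for CD34 SP and from 1.58% to 7.55% for CD138. Territory rose over the same groups.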

How the data were processed

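The members and gene lists were chosen with earlier results of these data known. Each deposited peak has a score, used here only to rank peaks within a list. Per the submitters' processing notes, build mm10, bcl2fastq and bedtools were used. The sources used here do not give the peak caller, the nature of the score or how the 2 libraries were pooled. The deposited single-cell matrix holds UMI counts from Cell Ranger, per the submitters' processing notes, with software version 3.0.0 per the file headers.

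Genes came from GENCODE vM21 on GRCm38, and sequences from NCBI's copy of that assembly. A peak was assigned to the protein-coding gene with the nearest start to its middle. Words, 25 in all, were searched on both strands of the central 200 bp. Kept barcodes had 500 genes or more and no more than 10% mitochondrial UMIs (11376 of 11484, median 6052 UMIs), and were clustered with scanpy 1.11.5 and leidenalg 0.10.2 at resolution 0.5. No doublets were removed. Of the protein-coding genes, 21622 were matched. Overlap, run and word steps were tested on simulated data, overlaps against bedtools 2.31.1. Named genes were the listed genes, the 20 genes with the most members, those of the 10 best members and 10 largest runs, and the 10 with the highest ratio of contractile to other CPM among genes with at least 3 members. Genes named for a CArG box or a rank in the first 100 were chosen after their values were seen. The 12 bulk RNA samples were not analysed here. 1 contractile gene is not reported here by name, and is counted only in the list totals.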

Additional observations from a re-analysis of the deposited data

How the results depend on the processing

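No paired analysis was possible because each population has 1 pooled peak list and the single-cell data are 1 library. The promoter share of 2.89% became 6.06% with promoters of 2 kb and 8.09% with starts of all annotated genes, which brought the median distance from 35813 to 11720 bp; both kept within their intervals with 5000 or 20000 members. The number of runs, 77, was 18 with gaps of 5 kb, 503 with gaps of 50 kb, 17 with 5000 members and 406 with 20000, and Myofibroblast had the fewest runs of the 4 populations in every one of these settings. Genes with a member, 5834, fell to 3658 with 5000 members. The CArG share of 1.38% was 2.51% in the central 400 bp, 1.72% in the strongest 5000 and, as an alternative added after the data were seen, 3.2% in the strongest 1000. The AP-1 share of 7.77% was 13.6% in 400 bp and 11.3% in the strongest 1000. Of genes higher in contractile cells, 45.8% held a member in the gene body with 10 kb on both sides and 13.4% one of the strongest 1000, against 52.6%; of lower genes, 27.9% and 6.37%, against 38.2%. All barcodes and a finer clustering moved neither share out of its interval. The read depth of the peaks is unknown, and the number of members limits the precision of word shares in the first 100.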
